A study of Mus musculus with 2 samples.

Results

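The Runx family and its shared partner, Runx1, Runx2, Runx3 and Cbfb, were followed in GIF-5 cells. This gastric epithelial line from the mouse lacks both Runx3 and p53 (Runx3-/-p53-/-). Members were taken as all non-control spots of the arrays whose gene name was one of these 4 symbols. They came to 19 spots of 10 probes, among 43379 spots of 41174 probes. Of these 10 probes, 8 were bright enough to be tested, among 23173 tested probes.

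The cultured cells carried no other labelled treatment. They were stained with a phycoerythrin-coupled antibody against CD133, a membrane glycoprotein encoded by Prom1 often used to mark stem-like cells, and were sorted into CD133-positive and CD133-negative fractions. Each of 2 two-colour Agilent arrays held RNA of CD133-positive cells in Cy3 and RNA of CD133-negative cells in Cy5. The genotype is shared by both fractions, so the arrays hold no cells with Runx3, and a change caused by its loss cannot be read from them. All cells came from a single line, and no array swapped the dyes, so the fraction and a dye effect on a probe cannot be told apart. The labels call the arrays biological replicates without saying whether cultures or sorts were separate, so the spread between them may be technical.

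RUNX proteins are transcription factors that bind DNA through the Runt domain. Cbfb does not bind DNA itself but holds the Runt domain in its DNA-binding form, and it serves all of the RUNX proteins. Runx1 is known for its part in forming blood stem cells, Runx2 for bone and cartilage formation, and Runx3 for gastric epithelial growth control, T cell fate and sensory neurons. Runx genes are transcribed from a distal and a proximal promoter, which give proteins with different first residues.

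The most upstream listed start regions of Runx1 and Runx3 and the only listed one of Runx2 share a short run of letters. It is shown here because it is rare among all start windows. The Runx2 gene reaches further upstream than its listed start, to 44814797 against 44814627 on chr17. In the RefSeq start windows of build GRCm38.p6 (300 bases around each listed start), ACCACA, the core that RUNX proteins bind, occurs at least once on either strand in 16.8% of 32851 windows. A tandem pair of the core, ACCACAGAACCACA, searched on both strands and containing the single core, occurs in 4 windows (0.0122%). These were the windows of Runx1, Runx2 and Runx3 and that of Gm16225, a neighbouring long non-coding RNA gene of Runx3 whose window overlaps it and holds the same copy. The pair was cut from the longest letters with the core that windows of all 3 Runx genes share. Its presence in them was therefore fixed in advance, and the search shows only how rare it is elsewhere. The 30-base stretches below are written 5′ to 3′ on the strand of the gene, with the tandem pair in capitals. They lie at chr16:92826025-92826054 (minus strand), chr17:44814583-44814612 (minus strand) and chr4:135120503-135120532 (plus strand).
Runx1: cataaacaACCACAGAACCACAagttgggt
Runx2: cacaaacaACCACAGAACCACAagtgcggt
Runx3: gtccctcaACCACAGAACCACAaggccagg
The pair begins 28 bases after the listed start in Runx1, 23 after it in Runx2 and 134 before it in Runx3. Of the 6 windows of the 4 genes, 3 held the core. The windows at the second listed start of Runx1 and of Runx3, and that of Cbfb, did not contain its letters. A match is a description of the letters, and the arrays do not measure binding.

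Ratios are log2 values of the CD133-positive over the CD133-negative fraction, after loess normalisation. They are given as the mean of both arrays ± moderated SE (n = 2). Adjusted p-values are from limma, over all tested probes for member probes and over all tested genes for other genes, unless said otherwise. Under alternative settings, the member probe that represents its gene takes its value from the fit over genes. In brief, after normalisation all 3 tested Runx2 probes of 4 were brighter in CD133-negative cells on both arrays, at least 2-fold for 2 neighbouring probes. Of 2 Runx1 probes, 1 was brighter in CD133-positive cells after normalisation. The other Runx1 probe, Runx3 and Cbfb lay near 0. None of the 8 tested probes passed an adjusted p of 0.05 in limma, where 1.36% of all tested probes did (1.15% higher and 0.203% lower in CD133-positive cells). At an unadjusted p under 0.05 there were 3 of the 8, of which 2 were lower (15.2% of all tested probes) and 1 higher (11.5%). At least 2-fold on both arrays were 2 lower (1.66%) and 0 higher (2.05%), and 4 were below 0 on both arrays (39.2%). By the deposited processed signals, the fractions did not overlap for 2 member probes that were higher in CD133-positive cells (27.9% of all tested probes) and for 3 that were lower (30.1%). Such separation is therefore common on these arrays.

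**Figure D1:**
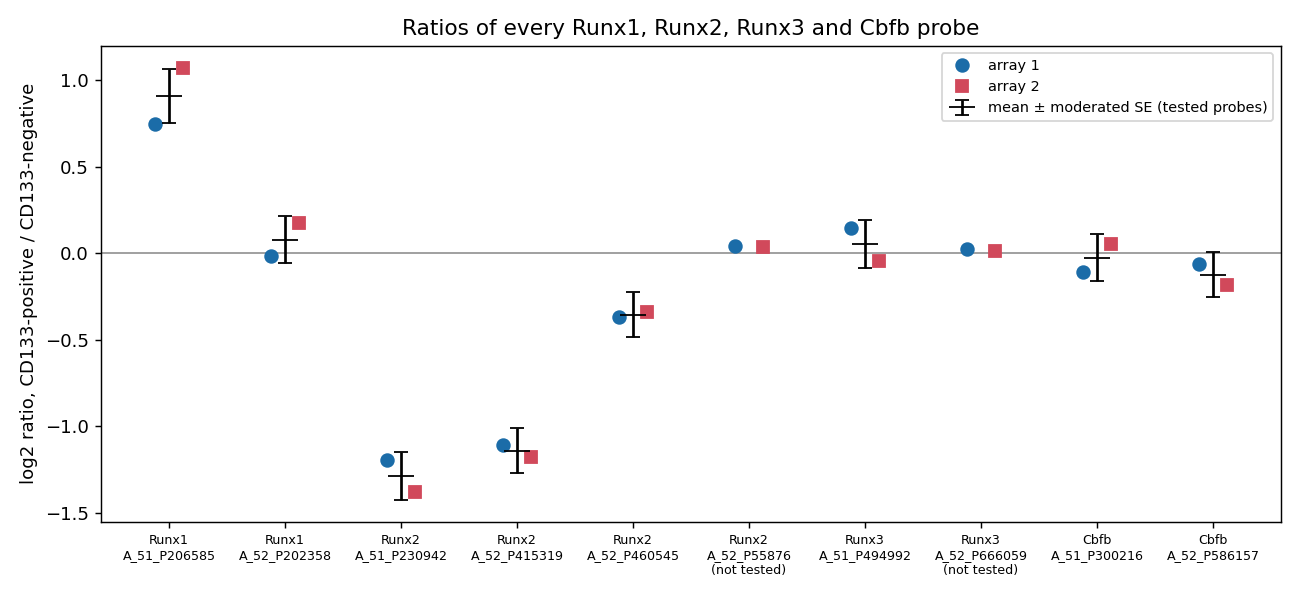
Log2 ratio of CD133-positive over CD133-negative cells (y axis) for each of the 10 probes (x axis), with a circle for array 1, a square for array 2 and a bar for the mean ± moderated SE of tested probes. The Runx2 probes A_51_P230942 and A_52_P415319 lie between -1.11 and -1.38, Runx1 probe A_51_P206585 at 0.75 and 1.07, and the Runx3 and Cbfb probes between -0.18 and 0.15.

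Prom1, the sorted marker, gave a ratio of 3.78 ± 0.14, and since its probe was not well above background on any array of the negative fraction, the difference was at least 3.58. This checks the direction of the dyes. Trp53, the other gene the label gives as null, had a probe well above background in both fractions on both arrays, at a mean normalised log2 brightness of 9.04 in the positive and 9.08 in the negative fraction. The probe thus gave signal for a gene labelled null. Where it lies relative to the deleted part is not known, so it does not check the label. Its ratio was -0.05 ± 0.14. Probes were flagged well above background for 23694 and 23498 spots in CD133-positive cells and for 25213 and 24648 in CD133-negative cells on arrays 1 and 2. Of 8 epithelial markers 6 were tested, Krt8, Krt18 and Krt19 among them, while Epcam and Cldn4 were not well above background on both arrays of either fraction. Of all 27670 genes on the array 15267 were tested, so this count does not check the epithelial label. None of the 6 passed in limma. Krt19 (-0.79), Krt8 (-0.78) and Krt18 (-0.54) were lower in CD133-positive cells, and Elf3 (1.03), Cdh1 (0.42) and Cldn7 (0.38) higher. The summed signal of the epithelial markers was 605621 and 590314 in the positive against 756901 and 768185 in the negative fraction. Of the gastric markers 8 of 12 were tested, and Atp4a, Cblif and Sox2 had no probe well above background on any array. Gkn2 (5.60 ± 0.15) and Tff1 (4.40 ± 0.15), secreted products of gastric surface cells, rose in CD133-positive cells (limma adjusted p = 0.0097 for each). The summed signal of the gastric markers was 338760 and 169205 in the positive against 20749 and 14254 in the negative fraction, and its part in the Runx values below was not tested. The number of arrays limits the precision, with a median SD between arrays of 0.18 over all tested genes.

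Runx3, the gene deleted in this line, was measured by 2 probes. Probe A_51_P494992 had a spot brightness of 61.1 and 62.9 in CD133-positive cells on arrays 1 and 2, over a local background of 45.0 and 49.0. In CD133-negative cells it was 86.5 and 90.8, over a background of 53.0 in each. All 4 values were well above background by the flag of the scanner program, but none was more than 1.71 times its background. After processing by that program the signals were 43.7 and 54.7 in CD133-positive and 42.8 and 58.3 in CD133-negative cells, so the fractions overlapped. The ratio was 0.15 on array 1 and -0.04 on array 2, with a mean of 0.05 ± 0.14 (limma adjusted p = 0.86) and a 95% interval from -0.33 to 0.44. The sign turned to a mean of -0.030 with the deposited processed signals, and with median centring over the tested genes in place of loess the ratio was 0.75 (limma adjusted p = 0.042).

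The second Runx3 probe, A_52_P666059, was not well above background in either fraction. Its spots read 49.1 and 50.7 in CD133-positive cells and 57.4 and 57.7 in CD133-negative cells, at most 1.12 times the local background. The program used a surrogate value in both channels on both arrays, and the authors' deposited log10 ratio is 0 on each. The files place the probes at chr4:134554481-134554540 and chr4:134555127-134555186 on the plus strand, 646 bases apart, in a genome build that is not given in the sources used here. Where these positions lie relative to the deleted part of Runx3 is not known, so a dim signal at one probe and none at the other neither checks nor contradicts the genotype. Positions of all member probes are in that unnamed build and cannot be set against the start windows of GRCm38.p6.

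**Figure D2:**
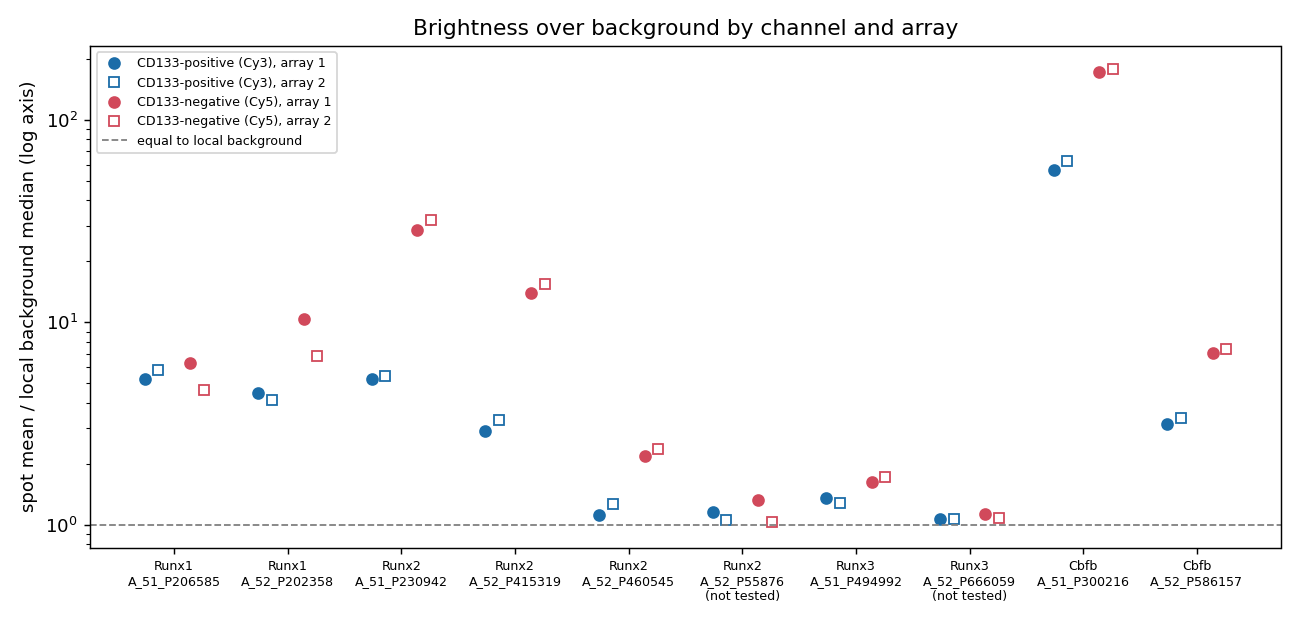
Spot brightness divided by local background (y axis, log scale) for each of the 10 probes, in CD133-positive (blue) and CD133-negative cells (red) on array 1 (filled) and array 2 (open), with the dashed line at 1. Cbfb probe A_51_P300216 reaches 179 times background, while the Runx3 probes stay at or below 1.71 times.

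Runx2, the bone and cartilage factor of the family, was the member with the lowest ratio. Its brightest probe, A_51_P230942, is printed 10 times on each array, and 1 of these spots carried an outlier flag on both arrays and was left out. The processed signal averaged 738 and 902 in CD133-positive cells and 1850 and 2487 in CD133-negative cells on arrays 1 and 2. Both values of CD133-negative cells were above both of CD133-positive cells. The ratio was -1.19 and -1.38, with a mean of -1.29 ± 0.14, a 2.44-fold brighter signal in CD133-negative cells, and a 95% interval from -1.67 to -0.90. Of all tested genes, 2.55% had a lower ratio. In a bulk fraction, fewer cells with Runx2 RNA and less of it in each cell cannot be told apart.

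The Runx2 ratio missed the threshold narrowly, with a limma adjusted p = 0.054 over all probes and over all genes. The adjusted p was below 0.05 under 7 of 12 alternative settings and ran from 0.0072 to 0.50 over all of them in limma, while the ratio stayed between -1.25 and -1.38 relative to the median of all genes.

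The repeated spots show what part of the Runx2 spread lay within an array. Over the 9 spots used, the ratio on array 1 had a median of -1.20, with extremes of -1.23 and -1.15 and an SD of 0.03. Array 2 gave extremes of -1.44 and -1.32, with a median of -1.39 and an SD of 0.03. The arrays did not overlap in these spots, and the SD between the array means was 0.13. Spots of an array share its hybridisation and are not replicates of the fraction. In the authors' deposited table the log10 ratio of CD133-negative over CD133-positive cells of the 10 spots was 0.38 to 0.41 on array 1 and 0.41 to 0.46 on array 2. The p-values of the technical error model there were at most 6.7e-08, and they cover a single spot, not replicate cells.

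**Figure D3:**
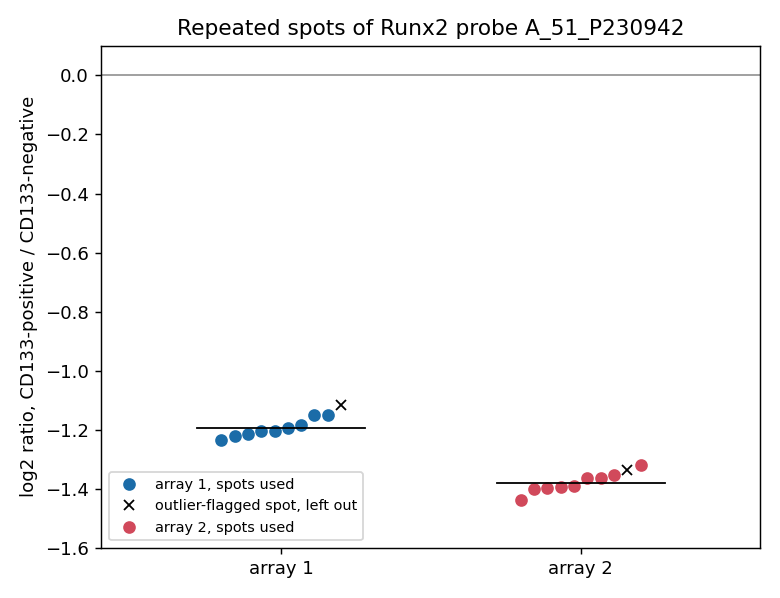
Log2 ratio of CD133-positive over CD133-negative cells (y axis) for the 10 repeated spots of Runx2 probe A_51_P230942 on each array (x axis), ordered by value, with a cross for the flagged spot and a line at the mean of the 9 spots used. On array 1 the spots used lie between -1.23 and -1.15, and those of array 2 are all lower, between -1.44 and -1.32.

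A second Runx2 probe, A_52_P415319, lies 138 bases from the first and so reads nearly the same stretch of the transcript. Its processed signal was 418 and 546 in CD133-positive and 1063 and 1400 in CD133-negative cells. The ratio was -1.11 and -1.18, with a mean of -1.14 ± 0.13 (limma adjusted p = 0.059), and the fractions did not overlap. The files place these probes at chr17:42727803-42727862 and chr17:42727941-42728000 on the minus strand.

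The third Runx2 probe, A_52_P460545, lies 3911 bases from the first, at chr17:42731714-42731773. It was dim, with spots of 56.9 and 63.5 in CD133-positive and 107 and 119 in CD133-negative cells. It exceeded background clearly in the positive fraction on 1 of 2 arrays and in the negative fraction on both. The ratio was -0.37 and -0.34, with a mean of -0.35 ± 0.13 (limma adjusted p = 0.19). The offset added in background correction pulls ratios of dim probes towards 0, and with the deposited processed signals the values were -1.51 and -0.91. With median centring over the tested genes it was 0.27.

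The remaining Runx2 probe, A_52_P55876, lies 209684 bases from the first, at chr17:42937487-42937546, and was not well above background in either fraction. Its spots read 52.6 and 50.8 in CD133-positive and 65.8 and 55.6 in CD133-negative cells. It therefore gives no level, and the part of the gene that it reads stays unmeasured here. The brighter of the first 2 Runx2 probes gave the lower ratio, with differences between them of -0.09 on array 1 and -0.20 on array 2.

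Runx1, the blood stem cell factor of the family, had 2 probes of similar brightness that differed in ratio. Probe A_51_P206585, designed on NM_009821, had a processed signal of 854 and 1030 in CD133-positive cells and of 429 and 369 in CD133-negative cells. The CD133-positive values were the higher pair, with no overlap. Before normalisation, the spots of this probe read 248 and 258 in CD133-positive and 348 and 263 in CD133-negative cells. The direction therefore rests on the normalisation of the dyes, which no dye swap checks. After loess the ratio of the probe was 0.75 and 1.07, with a mean of 0.91 ± 0.15. This is a 1.88-fold brighter normalised signal in CD133-positive cells (limma adjusted p = 0.082). The adjusted p fell under 0.05 in limma with median centring over the tested genes (0.034) and with none of the other alternatives, over which it ran up to 0.53. The ratio was 0.26 with median centring over all probes, where the median of all tested genes was -0.74. With the deposited processed signals it was 1.24. The authors' deposited table gives this probe a log10 ratio of CD133-negative over CD133-positive cells of -0.30 and -0.45.

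The other Runx1 probe, A_52_P202358, was designed on D13802, an mRNA entry for PEBP2aB, an older name of Runx1. Its processed signal was 643 and 639 in CD133-positive and 623 and 498 in CD133-negative cells. The CD133-positive values were higher, but on array 1 only narrowly. The ratio was -0.02 and 0.18, with a mean of 0.08 ± 0.14 (limma adjusted p = 0.77) and a 95% interval from -0.31 to 0.47. With median centring over all probes it was -0.59 (limma adjusted p = 0.030), a setting that also moved the median of all tested genes to -0.74.

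The 2 Runx1 probes differed by 0.76 on array 1 and by 0.90 on array 2. The difference had the same direction on both arrays, and no test of it was run. The files place A_51_P206585 at chr16:92658334-92658393 on the minus strand. They give A_52_P202358 a span of 30453 bases, chr16:92667924-92698376, far longer than the 60 bases of the other member probes, so its match is split over distant parts of the gene. Which Runx1 transcripts each probe reads was not determined here. The build of these positions is not given, so they cannot be set against the Runx1 start windows. As the representative of Runx1 in the fit over genes is the probe with the higher mean intensity, that fit took A_52_P202358, and Runx1 as a gene lay at 0.08.

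Cbfb, the partner subunit of all RUNX proteins, had 2 tested probes with ratios near 0. Probe A_51_P300216 had a processed signal of 12513 and 17500 in CD133-positive cells and of 13631 and 16729 in CD133-negative cells, so the fractions overlapped. The ratio was -0.11 and 0.06, with a mean of -0.03 ± 0.14 (limma adjusted p = 0.93) and a 95% interval from -0.41 to 0.35. The second probe, A_52_P586157, had a processed signal of 420 and 549 in CD133-positive and of 441 and 603 in CD133-negative cells. Its ratio was -0.06 and -0.18, with a mean of -0.12 ± 0.13 (limma adjusted p = 0.63). The files place them at chr8:103816376-103816435 and chr8:103814590-103814649 on the plus strand, 1786 bases apart. With median centring over all probes both ratios passed the threshold, at -1.04 and -0.74 against a median of -0.74 for all genes.

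In the order of their ratios, Runx2 probe A_51_P230942 was lowest at -1.29, followed by A_52_P415319 at -1.14, and the interval of the first did not reach those of Cbfb, Runx3 and Runx1 probe A_52_P202358. The dim Runx2 probe A_52_P460545, at -0.35, had an interval from -0.72 to 0.01 that overlapped theirs and not that of A_51_P230942. The probes of Cbfb and Runx3 and Runx1 probe A_52_P202358, from -0.12 to 0.08, had intervals that overlapped one another. The intervals are unadjusted, and no test between probes was run. Runx1 probe A_51_P206585 came last at 0.91, with an interval from 0.48 to 1.34. Levels of different probes cannot be set against each other on these arrays, so which family member was the most abundant is not given.

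The tested genes whose pair of array ratios lay nearest to that of each member were found by Euclidean distance over the 2 arrays. With so few values the match says little about a pattern, and it names genes only. For Runx2 they were Csf2 (-1.17 and -1.37, distance 0.02), Pabpc1 (-1.16 and -1.37) and Padi2 (-1.22 and -1.44). For the Runx1 probe A_52_P202358 they were Lyl1, Ctrl and Rnf115, for Runx3 Pycard, Foxe3 and Naca, and for Cbfb Fchsd2, Myom1 and Zdhhc17, each within a distance of 0.01.

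Genes known to work with or downstream of RUNX proteins were examined in 6 lists. Together these held 165 genes, of which 126 were tested in the fit over genes. There 2 of the 126 passed, 1.59%, against 1.64% of all tested genes, so calls were about as frequent in the lists as elsewhere. Both were higher in CD133-positive cells, where 1.38% of all genes passed, against 0.262% lower. The direction of the calls depended on the setting. Without background correction 3 of 5 were lower, against 109 of 383 over all genes. With an offset of 16 it was 4 of 7 (159 of 563). After scaling between arrays it was 7 of 12 (335 of 758), and with an intensity trend 8 of 12 (326 of 820). With the filter for both channels it was 2 of 4 (73 of 304), and with the processed signals 1 of 3 (94 of 486). Median centring gave 26 of 39 over the tested genes (1573 of 4013) and 91 of 95 over all probes (9623 of 10107).

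Among the corepressors and coactivators, the Tle, Hdac, Ncor and Sin3 genes and acetyltransferases, all 25 were tested and 0 passed in limma, with 3 higher and 3 lower at an unadjusted p under 0.05 (11.9% and 16% of all tested genes). Their median was -0.12, against -0.03 for all tested genes, with 8 above 0 and 10 below 0 on both arrays (32.6% and 39.7% of all genes). The corepressor Cbfa2t3, a relative of the RUNX1 fusion partner Runx1t1, had the largest ratio, 1.56 and 2.50 with a mean of 2.03 ± 0.28 (limma adjusted p = 0.066). Hes1, a repressor induced by Notch, was at 0.92 ± 0.14 (limma adjusted p = 0.073). As a difference from the median of all genes, that of the list turned from -0.09 to 0.05 without replicate 1, and was -0.27 under median centring.

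Transcription factors that act with RUNX proteins, such as Smad, Ets, Tead, Cebp and TCF factors, had 28 of 36 members tested. This list also holds the cofactors Yap1, Wwtr1 and Ctnnb1. In limma 0 passed, with 2 higher (11.9% of all tested genes) and 11 lower (16%) at an unadjusted p under 0.05. Their median was -0.22, with 6 above 0 and 14 below 0 on both arrays (32.6% and 39.7% of all genes). Tcf7, a TCF factor of the Wnt pathway, was at -0.97 and -2.03, with a mean of -1.50 ± 0.30 (limma adjusted p = 0.089). Ets1, which binds DNA together with Runx1, was at -1.22 and -1.30, with a mean of -1.26 ± 0.14 (limma adjusted p = 0.052). The dimmest tested probes gave smaller differences, -0.82 for Tcf7 and -0.48 for Ets1 (limma adjusted p of 0.14 and 0.15). The difference of the list median from that of all genes was -0.19, and it was -0.45 without replicate 1, -0.38 under median centring and -0.05 without a brightness filter.

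Of the kinases, ubiquitin ligases, methyltransferases and other enzymes that act on RUNX proteins or their genes, all 32 were tested. Prmt6, an arginine methyltransferase, rose in the positive fraction, with ratios of 2.23 and 2.06 and a mean of 2.14 ± 0.14 (limma adjusted p = 0.023). The call was lost without a brightness filter (limma adjusted p = 0.070), without moderation (limma adjusted p = 0.49) and with the dimmest tested Prmt6 probe, which gave 0.69 (limma adjusted p = 0.12). The other 31 did not pass in either direction, with 4 higher, Prmt6 among them, and 6 lower at an unadjusted p under 0.05 (11.9% and 16% of all genes). The list median was -0.04, with 9 above 0 and 14 below 0 on both arrays (32.6% and 39.7% of all genes), and as a difference from that of all genes it went from -0.01 to -0.11 under median centring.

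Genes linked to Runx2 in bone and cartilage were mostly not measurable. Of 26 genes 10 were tested, and 13 had no probe well above background on any array, among them the bone genes Sp7, Bglap and Ibsp. The ligand Ihh, which is also made by gastric epithelium, rose by 3.88 ± 0.14 (limma adjusted p = 0.0097), a call that was lost without moderation (limma adjusted p = 0.44), and none passed in the other direction. Without adjustment, 1 was higher and 5 were lower at a p under 0.05 (11.9% and 16% of all genes). Spp1, Mmp13, Twist2 and Col1a1 were at least 2-fold lower in CD133-positive cells on both arrays, as for 2.12% of all genes, and did not pass. Of these, Spp1, which encodes osteopontin, was at -2.22 and -4.95, and Mmp13, a collagenase, at -1.26 and -3.53, so the arrays differed widely. Twist2 exceeded background clearly in the positive fraction on 1 of 2 arrays. Col1a1, a collagen chain, was at -1.25 ± 0.18 (limma adjusted p = 0.067), but its dimmest tested probe gave -0.21 (limma adjusted p = 0.37). The list median was -0.47, which relative to all genes was -0.44 and shrank to -0.26 with the filter for both channels, to -0.10 when the dimmest tested probe stood for each gene, and to -0.02 without a brightness filter.

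Genes linked to Runx1 and Runx3 in blood cells had 11 of 25 members tested, and 12 had no probe well above background on any array, including Spi1, Ptprc and Cd8a. In limma 0 passed, with 1 higher and 3 lower at an unadjusted p under 0.05 (11.9% and 16% of all genes). The cytokine Csf2 was at -1.27 ± 0.14 (limma adjusted p = 0.056) and Csf1r, the receptor for macrophage colony-stimulating factor, at -0.87 ± 0.14 (limma adjusted p = 0.078). Other Csf1r probes differed less between the fractions. With the filter for both channels Csf1r was at -0.08 (limma adjusted p = 0.78), and its dimmest tested probe gave -0.26 (limma adjusted p = 0.28). The list median of -0.05 was close to the -0.03 of all genes, while under median centring it lay 0.58 above theirs.

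Genes linked to RUNX proteins in epithelial growth and adhesion had 23 of 25 members tested. In limma 0 passed, with 1 higher and 10 lower at an unadjusted p under 0.05 (11.9% and 16% of all genes). Their median was -0.34, with -0.32 on array 1 and -0.44 on array 2, and 12 of the 23 were below 0 on both arrays and 5 above (39.7% and 32.6% of all genes). The Notch ligand Jag1 was at -0.999 and -2.43 with a mean of -1.71 ± 0.39 (limma adjusted p = 0.10). Its dimmest tested probe gave -0.54 (limma adjusted p = 0.17). The difference of the list median from that of all genes was -0.31, with -0.15 for the dimmest tested probes and -0.54 under median centring. Cldn1, a tight junction gene, had no probe well above background.

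**Figure D4:**
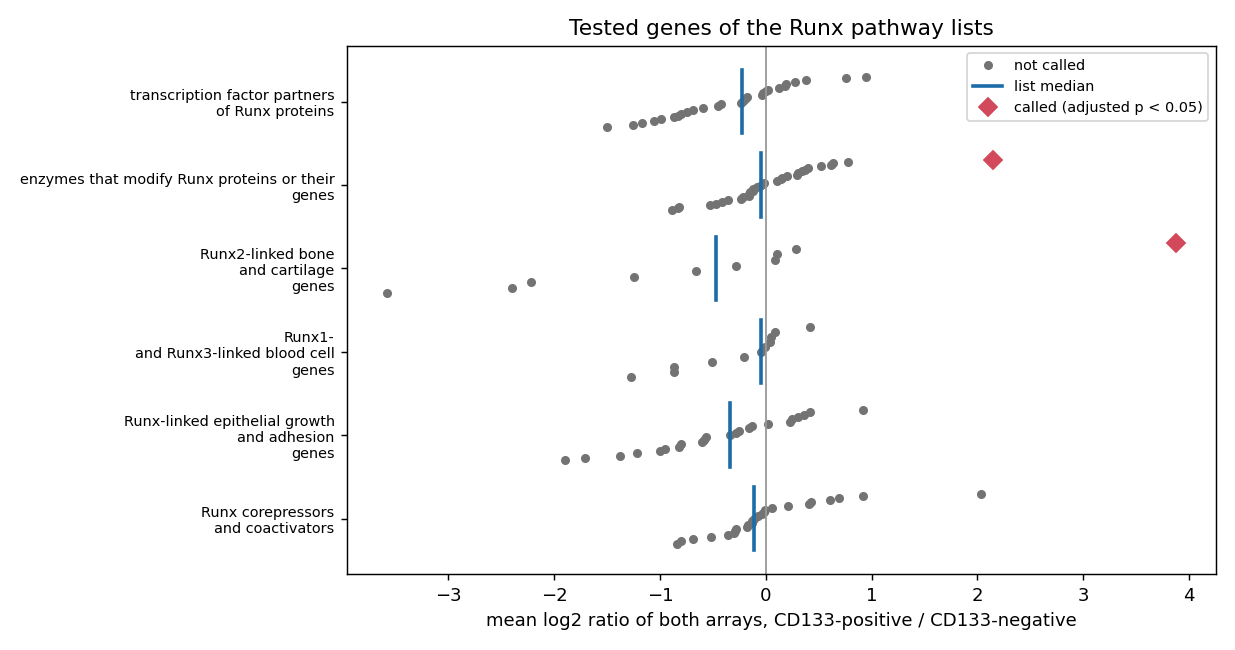
Mean log2 ratio of both arrays, CD133-positive over CD133-negative (x axis), for each tested gene of the 6 Runx pathway lists (y axis), with a bar at each list median and a diamond for genes that passed. The diamonds are Prmt6 at 2.14 and Ihh at 3.88, and the medians run from -0.47 to -0.04.

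Markers of other cell types that could carry Runx transcripts were checked beside these values. Of 8 osteoblast and chondrocyte markers 2 were tested, Acan at -0.06 and Col2a1 at 0.12, and 6 had no probe well above background, while their summed processed signal was 216 and 297 in CD133-positive and 198 and 269 in CD133-negative cells. Of 9 fibroblast and muscle markers 4 were tested and none passed, with Dcn, Lum, Pdgfra and Pdgfrb not above background and summed signals of 20100 and 22849 against 18565 and 22000. Of 8 blood cell markers 2 were tested, Cd3e at -0.06 and Cd68 at 0.24, with summed signals of 283 and 229 against 153 and 258. Of 6 endothelial markers Cdh5 and Vwf rose in CD133-positive cells (limma adjusted p of 0.043 and 0.012). Vwf was at 3.75 ± 0.15, and Cdh5 was at least 5.81-fold higher, since it was not above background in the other fraction. Both calls were lost without a brightness filter and without moderation, and that of Cdh5 also with its dimmest tested probe. The endothelial markers had summed signals of 4238 and 7023 against 212 and 303. Kdr, Pecam1, Tek and Tie1 had no probe well above background. The part of these genes in the Runx1 values was not tested.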

How the data were processed

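RNA of both fractions was read on 2 arrays. The deposited spot and background brightness is an intensity, and the deposited processed signals are an intensity that Agilent Feature Extraction 9.5.3.1 detrended and dye-normalised with local background correction off, per the file headers. Deposited log10 ratios set processed Cy5 over Cy3 signals, and the deposited p-value is from the program's error model for a single spot, per the file headers. The series' value table held the same log10 ratios.

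Intensities were corrected by normexp (offset 50) and normalised by loess, with control spots at weight 0. The unflagged spots of each probe were averaged. Tested probes were well above background in most of these spots on both arrays in Cy3 or in Cy5. The test of the mean ratio used limma 3.58.1 (R 4.3.3), two-sided, with Benjamini-Hochberg adjustment over 23173 probes or 15267 genes (the brightest tested probe of each) at 0.05, with 1 residual and 2.92 or 2.86 prior degrees of freedom. The test was also run on simulated ratios drawn from its own fitted variance model. Such ratios hold no dye or intensity effects, so they cannot check the calls for these. Probes were named through a RefSeq table (GRCm38.p6): 22951 by accession, 9768 by symbol or synonym, and 8455 kept the file's name.

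Named genes were every member probe, Prom1 and Trp53, in each list the genes that passed or else the largest 2 of the same direction on both arrays, the 3 nearest to each member, and members of small counts. Genes with provisional names were passed over in the search for the nearest. A gene that the rule selects is not reported here. The members and lists were chosen with earlier results of these data known. The tandem pair was taken from the Runx windows themselves, and the promoter letters were searched after the sequences had been seen. Alternatives changed the background correction, normalisation, filter, variance model, probe choice, replicates and flagged spots.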

Additional observations from a re-analysis of the deposited data

How the results depend on the processing

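The number of genes called, 251 (211 higher and 40 lower), depended on most choices. With no background correction it was 383, at an offset of 16 it was 563, and it was 10107 with median centring over all probes, 4013 with centring over the tested genes, 486 with the processed signals and with the value table, 758 after scaling between arrays, 29 without a brightness filter, 820 with an intensity trend, 0 without moderation in limma (1507 at an unadjusted p under 0.05) and 156 with the dimmest probe. In the same order the calls over the Runx lists, 2 in the report, were 5, 7, 95, 39, 3, 3, 12, 1, 12, 0 (13 at an unadjusted p under 0.05) and 1, and they were 4 with the filter for both channels. The higher calls were 274 of 383, 404 of 563, 484 of 10107, 2440 of 4013, 392 of 486, 423 of 758 and 494 of 820.

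Runx2 probe A_51_P230942 passed in 7 settings. At an offset of 16 it was -1.34, with no background correction -1.30, and it was -2.11 and -1.38 with median centring over all probes and over the tested genes, -1.28 after scaling between arrays, and -1.29 with the intensity trend and with both channels required to be bright. Probe A_52_P415319 passed at -1.25, -1.17, -1.85, -1.12, -1.14 and -1.14 in the same settings except the filter. Probe A_52_P460545 passed at -0.46 with median centring over all probes and turned to 0.27 with centring over the tested genes. With the latter, Runx1 probe A_51_P206585 passed at 0.99 and Runx3 at 0.75. Runx3 turned to -0.030 with the processed signals and the value table. With median centring over all probes, Runx1 probe A_52_P202358 turned to -0.59 and the Cbfb probes passed at -1.04 and -0.74. Trp53 turned to 0.031 with the processed signals and the value table, and Hes1 to -0.020 with median centring over all probes. Ets1 and Csf2 passed in 7 and 9 settings. The causes were not tested.

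A single array allows no test. Without replicate 1 or replicate 2, Runx2 probe A_51_P230942 was -1.38 or -1.19 and Runx1 probe A_51_P206585 was 1.07 or 0.75. The ratio within an array is itself the paired comparison of the fractions, so no further replicate block was fitted. Keeping flagged spots, a setting chosen after seeing the data, gave 256 calls and Runx2 at -1.28.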
